A study of Mus musculus with 13 samples.

Results

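The homeobox genes that mark regions of the gut-tube and second heart field mesenchyme were followed in embryonic mouse foregut and trachea: *Isl1*, *Barx1*, *Nkx2-3*, *Nkx3-2*, *Nkx6-1*, *Meis1* and *Meis2*. They were chosen by symbol, as 7 of the 32793 genes in the count and TPM tables, and all 7 were present. RNA was sequenced from foreguts dissected at E10.5 (3 controls and 3 mutants) and from tracheas at E11.5 (3 controls and 4 mutants), each library from 1 embryo dissection. Every embryo carried the Gli3TFlag/+ allele, which encodes a truncated Gli3 that represses Hedgehog target genes. The mutants also carried Foxg1Cre, active in the foregut endoderm and mesoderm, which switches the allele on, and the controls had no Cre. The question was what excess Gli3 repressor does to these regional factors in the early foregut and then in the trachea. The counts of a library summed to between 9.65 and 17.99 M. At both stages the *Gli3* level of each mutant exceeded that of each control, in reads that do not separate the transgene from the endogenous gene. Markers of neighbouring tissue also differed: the summed level of 9 cardiomyocyte markers was 60.02 to 494 CPM in E11.5 controls and 600 to 4036 in E11.5 mutants (CPM, counts per 1 M counts of the scaled library). At E10.5 it was 73.9 to 76.6 CPM in controls and 114 to 1728 in mutants. At each stage mutant replicate 2 had the most. Of the 7 markers listed for the endoderm of digestive organs, *Pdx1*, *Ptf1a* and *Cdx2* had no count in any library. *Neurog3* had 6 counts in all in E10.5 controls and 6 in E10.5 mutants, and *Alb*, *Afp* and *Hhex* had counts in every group.

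Homeobox genes encode transcription factors that bind DNA through the homeodomain and give cells along the embryo their regional identity. *Isl1* encodes a LIM-homeodomain factor of second heart field progenitors, and is also known from motor and sensory neurons and from pancreatic islets. *Barx1* is known as a factor of the stomach mesenchyme, where it limits Wnt signalling. *Nkx2-3* and *Nkx3-2* belong to the NK family and act in the mesenchyme of the gut and spleen, *Nkx3-2* in the sclerotome as well. *Nkx6-1* is an NK-type factor of the ventral neural tube and the pancreas. *Meis1* and *Meis2* encode TALE homeodomain proteins, which act with other homeodomain proteins and are broadly expressed in mesenchyme.

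The third helix of the homeodomain, which lies in the major groove of the DNA, is the most conserved stretch of homeodomains, so its coding bases are shown for 5 of the members to compare them. They were read from the GENCODE vM21 transcripts, 5′ to 3′, as 36 bases, with the 6 codons from the invariant tryptophan codon in capitals.
*Isl1*: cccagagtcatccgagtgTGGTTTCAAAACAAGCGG
*Barx1*: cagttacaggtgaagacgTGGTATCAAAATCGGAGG
*Nkx2-3*: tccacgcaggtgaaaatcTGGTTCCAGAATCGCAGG
*Meis1*: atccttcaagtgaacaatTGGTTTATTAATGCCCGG
*Meis2*: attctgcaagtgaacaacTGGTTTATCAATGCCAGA
*Meis1* and *Meis2* had 30 of the 36 bases in common, and *Barx1* and *Nkx2-3* had 23. *Isl1* stood furthest from the rest, with between 10 and 17 bases in common with the other 4 genes shown. Alike as they are here, no window of the 75-nt read length in a transcript of *Isl1*, *Barx1*, *Nkx2-3*, *Nkx3-2*, *Nkx6-1* or *Meis2* occurred in the transcripts of another gene. In *Meis1*, 16.1% of such windows did, all of them in the overlapping gene models Gm37818 and Gm16140, the latter on the opposite strand. Since the libraries do not mark strand, *Meis1* counts can hold reads of these models.

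*Isl1* lies on chromosome 13 from 116298281 to 116309689 on the minus strand (GRCm38), and no other gene of the vM21 annotation overlaps it. As it is the one member that fell in the mutants, the 250 bases before its start are shown from RefSeq (GRCm38.p6, chr13:116309689-116309938, minus strand), with the matches to CCAAT in capitals.
*Isl1* promoter: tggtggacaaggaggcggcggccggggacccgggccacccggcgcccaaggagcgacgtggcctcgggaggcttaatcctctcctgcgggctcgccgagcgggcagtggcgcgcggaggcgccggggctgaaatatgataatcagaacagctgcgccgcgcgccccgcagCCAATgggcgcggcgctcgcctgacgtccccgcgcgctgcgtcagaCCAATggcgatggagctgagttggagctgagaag
This window held 2 matches to CCAAT, a sequence found on either strand in 33.8% of the 32851 promoter windows of the same length. It held no match on either strand to GACCACCCA, the consensus of Gli proteins, which 0.225% of the windows held. It also held none to the shorter CCACCCA (8.11% of windows), to the forkhead sequence GTAAACA (3.17%) or to the homeodomain sequence TAATTA (4.84%). CCACCCA overlaps GACCACCCA, and among the members only the *Barx1* and *Nkx2-3* windows held it. All 7 members matched 1 window each.

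On the scale of TPM, which corrects for transcript length, the order of the members was much alike in the 4 groups. *Meis2* was highest in every group, with group means from 130.7 to 179 TPM. *Meis1* followed with means from 82.6 to 107 TPM, and its library range overlapped that of *Meis2* only in E11.5 controls. *Isl1* came next with a mean of 22.6 ± 1.32 TPM in E10.5 controls (SD, n = 3), above 78.4% of the genes listed above 0 TPM there. *Nkx6-1* and *Barx1* had means between 1.07 and 5.39 TPM, and their ranges overlapped at E10.5 but not at E11.5, where *Nkx6-1* was the higher in both groups. *Nkx3-2* and *Nkx2-3* were lowest in every group, with means of at most 0.680 TPM and ranges that overlapped each other. In E11.5 mutants the *Isl1* mean was 6.78 ± 2.95 TPM (SD, n = 4), and its range overlapped that of *Nkx6-1*, which it did in no other group.

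**Figure D1:**
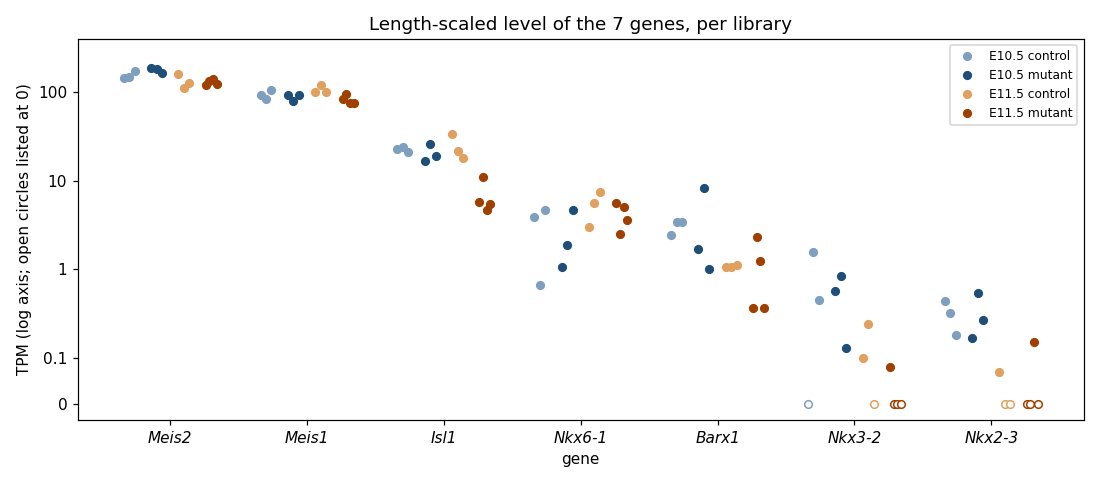
TPM of each of the 7 genes (x axis) in each library (points) on a log axis, coloured by group, with values listed at 0 as open circles. *Meis2* and *Meis1* lie near 100 TPM, and *Isl1* in the 4 E11.5 mutants falls to between 4.73 and 11.15 TPM from 18.1 to 33.4 in the E11.5 controls.

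*Isl1* was lower in the mutant trachea at E11.5 and was not detectably different in the mutant foregut at E10.5. *Isl1* stood at 36.6, 39.9 and 30.6 CPM in the E10.5 controls and at 26.9, 41.8 and 29.2 in the E10.5 mutants. The groups overlapped, with mutant replicate 2 the highest of the 6 libraries. The log2 fold change was -0.13 (95% interval -0.54 to 0.28, adjusted p = 0.736, quasi-likelihood test of edgeR). In the tracheas *Isl1* stood at 46.2, 31.9 and 27.4 CPM in controls and at 8.82, 16.1, 6.86 and 9.15 in mutants. Every mutant library lay below every control library, and mutant replicate 2 was again the highest of its group. The log2 fold change was -1.78 (standard error 0.272, 95% interval -2.37 to -1.18, adjusted p = 0.00906), a level 3.43-fold lower. Of the 5 members that passed the filter on low counts, *Isl1* was the only one called (adjusted p under 0.05) for the genotype at E11.5, where 2.5% of the 15376 genes tested were called and 0.689% were called lower. It was also the only one of the 5 whose groups did not overlap, as those of 16.7% of all genes did not. In this bulk tissue, fewer cells with *Isl1* and less *Isl1* RNA per cell cannot be told apart.

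Markers of several tissues also differed between the genotypes in the E11.5 tracheas, most of them higher in the mutants, where *Isl1* was lower. The summed level of 7 general mesenchyme markers was 1465 to 2052 CPM in E11.5 controls and 2219 to 2630 in mutants, with 2 of 7 called higher, *Twist1* and *Prrx1*. Regulators of the foregut mesenchyme went both ways. Of 23, 3 were called lower, *Sox9*, *Foxf1* and *Tcf21*, and 1 was called higher, *Gata4*. Their median log2 fold change was -0.27. Per 1000 counts of the general markers *Isl1* had 17.7 to 22.5 counts in controls and 3.09 to 7.23 in mutants. Neuron markers, of interest because *Isl1* is also a neuronal gene, summed to 21.9 to 61.3 CPM in E11.5 controls and 33.1 to 44.4 in mutants, with none of the 6 tested called. Markers that were also higher in the mutant tracheas were those of foregut and airway epithelium (125 to 158 CPM in controls, 228 to 353 in mutants, 5 of 8 genes called higher), of endothelium (189 to 234 CPM in controls, 268 to 338 in mutants, 1 of 4 called higher, *Kdr*) and of facial and pharyngeal mesenchyme (25.1 to 35.6 CPM against 64.3 to 73.5, 3 of 7 tested called higher). The 9 cardiomyocyte markers were also higher in the mutant tracheas, with a median log2 fold change of 2.60, although none was called at E11.5. The groups did not overlap in 6 of the 9, as they did not in 16.7% of all genes. The summed level of somite and sclerotome markers was instead 21.3 to 34.1 CPM in E11.5 controls and 13.8 to 23.0 in mutants. Their median log2 fold change was -0.55, with none of the 4 tested called and *Pax9* at 0.60. The part of these other tissues in the *Isl1* difference was not tested. Leaving out mutant replicate 2, with 4036 CPM of cardiomyocyte markers, kept the call, as did leaving out each other E11.5 library (log2 fold change -2.09 to -1.54, adjusted p up to 0.0374).

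**Figure D2:**
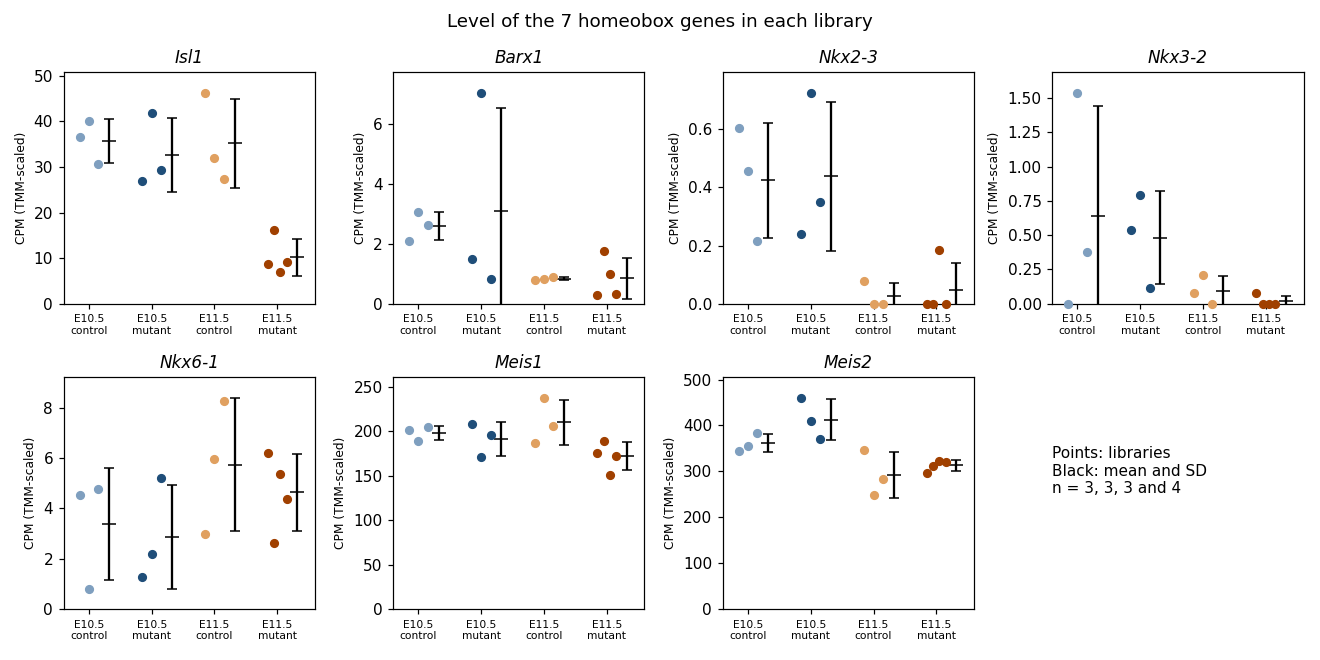
CPM of each of the 7 genes on its own linear axis, with 1 point per library, grouped by stage and genotype; black bars are the mean and SD (n = 3, 3, 3 and 4). The 4 E11.5 mutant libraries have 6.86 to 16.1 CPM of *Isl1* and all lie below the E11.5 controls, and no other gene tested separates the genotypes at either stage.

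Between the stages, *Isl1* was lower at E11.5 in mutants and showed no detectable difference in controls. In 1 fit of all 13 libraries, its log2 fold change from E10.5 to E11.5 was 0.02 in controls (95% interval -0.55 to 0.59, adjusted p = 0.961) and -1.62 in mutants (95% interval -2.17 to -1.06, adjusted p = 0.00125), or 3.07-fold lower. The mutant stage difference and the E11.5 genotype difference rest in part on the same 4 mutant tracheas. Stage, tissue and table cannot be told apart, since each stage was dissected differently and deposited in its own table. The test of whether the genotype effect differed between stages gave a log2 difference of -1.64 (standard error 0.372, 95% interval -2.44 to -0.84, adjusted p = 0.142 from edgeR, unadjusted p = 0.000603), so *Isl1* was not called in it by edgeR. Of the 11 other settings, DESeq2 alone called it (adjusted p = 0.00547, against up to 0.173 over the settings), and none of the 13 fits without 1 library did (adjusted p 0.0518 to 0.367, edgeR). None of the 5 members tested was called in edgeR's test of that difference, in which 0.0248% of the 16132 genes tested were called. At an unadjusted p under 0.05 there were 1 of the 5 members and 2294 of the 16132 genes. For the stage effect, *Isl1* and *Meis2* were the 2 of 5 members called in mutants, against 15.5% of all genes, and 0 of 5 were called in controls, against 21.3% of all genes.

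**Figure D3:**
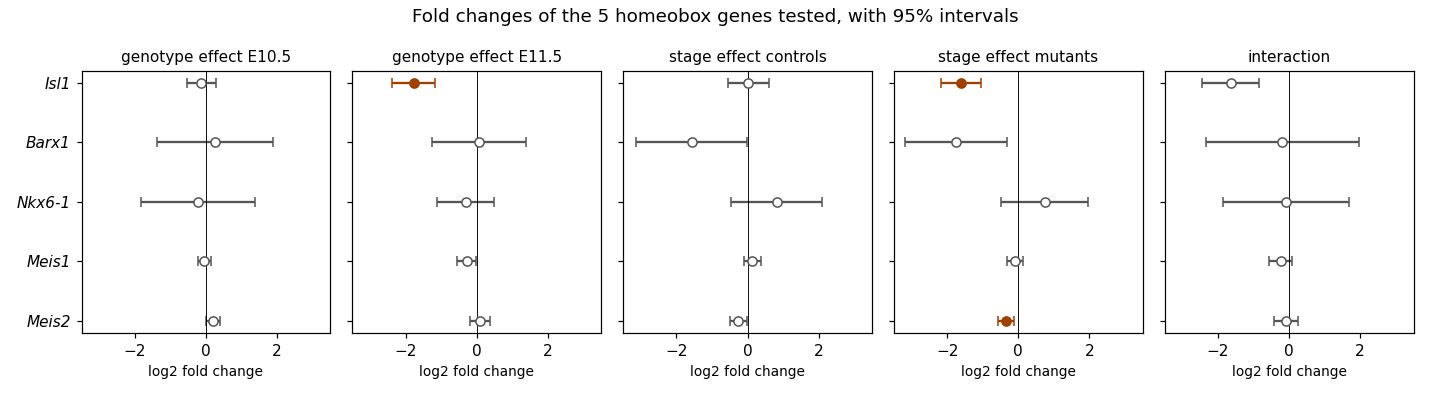
Log2 fold change (x axis) with its 95% interval for the 5 members tested, in a panel for each comparison; filled points are called at an adjusted p under 0.05. *Isl1* at E11.5 (-1.78) and between stages in mutants (-1.62) and *Meis2* between stages in mutants (-0.35) are filled.

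The genes whose pattern over the 13 libraries was most like that of *Isl1* were *Cxcl12*, *Has2* and *Jakmip2*. Likeness was the root mean square difference of centred log2 CPM, among 11453 genes tested at both stages with a mean log2 CPM of at least 2. It is a description. The genes were picked for likeness over these same 13 libraries, so their lower levels at E11.5 follow in part from the choice and are not a separate result. *Cxcl12*, a chemokine that attracts cells with the receptor Cxcr4, differed from *Isl1* by 0.317 on the log2 scale. Its level in E11.5 controls was 429, 294 and 325 CPM, against 120.1, 143, 137 and 102.6 in mutants. The groups did not overlap, as they did not in 16.7% of all genes. Its log2 fold change at E11.5 was -1.47 (adjusted p = 0.00119, edgeR) and at E10.5 -0.35 (adjusted p = 0.422). *Has2*, which makes hyaluronan, differed from *Isl1* by 0.354, and had a log2 fold change of -0.94 at E11.5 (adjusted p = 0.134, edgeR), with mutant replicate 2 at 37.7 CPM among the controls. *Jakmip2* differed by 0.478 and had a log2 fold change of -0.96 at E11.5 (adjusted p = 0.104, edgeR).

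**Figure D4:**
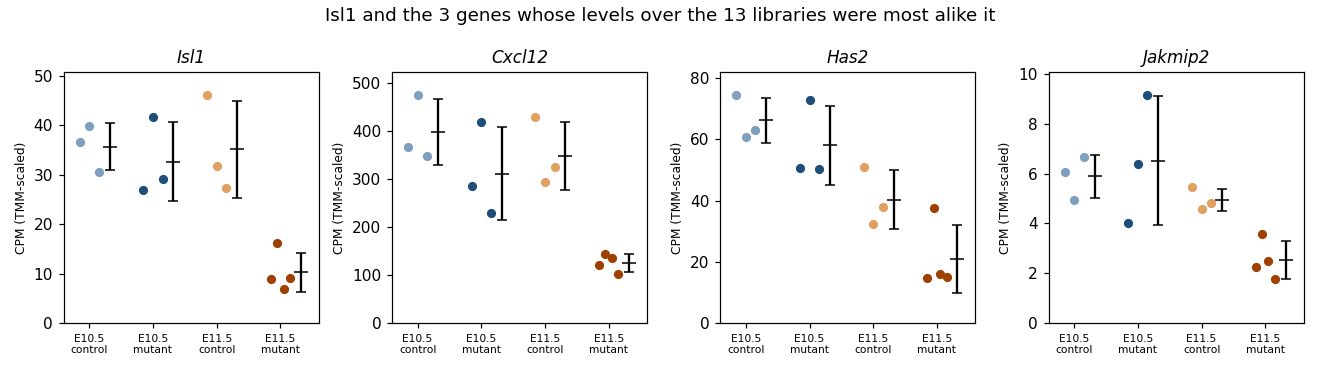
CPM of *Isl1*, *Cxcl12*, *Has2* and *Jakmip2* by group, with 1 point per library and the mean and SD in black, each on its own linear axis. In *Cxcl12* the 4 E11.5 mutants (102.6 to 143 CPM) lie below all 3 E11.5 controls, as in *Isl1*, whereas in *Has2* mutant replicate 2 lies among the controls.

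*Barx1* was low and differed most between mutant libraries. At E10.5 the controls had 2.12, 3.07 and 2.63 CPM and the mutants 1.49, 7.05 and 0.817. Mutant replicate 2 was above all controls and the other mutants below them. At E11.5 the controls had 0.788, 0.831 and 0.909 CPM and the mutants 0.302, 1.78, 0.989 and 0.335, with replicate 2 again the highest. The log2 fold changes were 0.25 at E10.5 (95% interval -1.38 to 1.87, adjusted p = 0.885, edgeR) and 0.06 at E11.5 (95% interval -1.27 to 1.38, adjusted p = 0.972), so neither was called. Without mutant replicate 2 they were -1.17 (adjusted p = 0.223, edgeR) and -0.56 (adjusted p = 0.670), while without E10.5 mutant replicate 3 the first was 0.70 and without E11.5 mutant replicate 1 the second was 0.34. No fit without 1 library called either. That library held the most cardiomyocyte markers at each stage, and their part in its *Barx1* level was not tested. From E10.5 to E11.5 *Barx1* had log2 fold changes of -1.57 in controls (adjusted p = 0.140, edgeR) and -1.76 in mutants (adjusted p = 0.0911). Without E10.5 mutant replicate 2 the mutant difference was -0.34 (adjusted p = 0.755, edgeR). With all libraries it was called by DESeq2 (-1.79, adjusted p = 0.0480), and by edgeR without E10.5 mutant replicate 3 (-2.21, adjusted p = 0.0346) or E11.5 mutant replicate 2 (-2.37, adjusted p = 0.0483), and the control difference with both mutant libraries numbered 2 left out (-1.58, adjusted p = 0.0327).

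*Nkx2-3* and *Nkx3-2* had too few counts to pass the filter, and were set side by side as raw counts. *Nkx2-3* had 10, 8 and 4 counts in E10.5 controls and 4, 11 and 6 in E10.5 mutants. At E11.5 it had 1, 0 and 0 counts in controls and 0, 0, 3 and 0 in mutants. *Nkx3-2* had 0, 27 and 7 counts in E10.5 controls and 9, 12 and 2 in mutants. At E11.5 it had 1, 3 and 0 counts in controls and 1, 0, 0 and 0 in mutants. Both genes were thus seen mainly in the E10.5 foreguts, and in the trachea no library had more than 3 counts, a number that corresponds to between 0.185 and 0.335 CPM in the E11.5 libraries. Scaled to library size, the E11.5 libraries together had 0.105 times the *Nkx2-3* of the E10.5 libraries (95% interval 0.0273 to 0.288, for counting error only) and 0.0986 times the *Nkx3-2* (0.0308 to 0.244). An exact permutation test of log2(CPM + 0.1) over the 6 and 7 libraries, two-sided and chosen after these genes were seen to fail the filter, gave p = 0.00117 for *Nkx2-3*, the smallest p that its 1716 assignments can give, and p = 0.0216 for *Nkx3-2* (Benjamini-Hochberg adjusted over both, 0.00233 and 0.0216). Between genotypes at E10.5 the mutants had 1.02 times the *Nkx2-3* of controls (95% interval 0.536 to 1.95) and 0.726 times the *Nkx3-2* (0.408 to 1.27), and a difference was not detectable at this depth.

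*Nkx6-1* was called in no comparison. At E10.5 its controls had 4.53, 0.797 and 4.77 CPM and its mutants 1.25, 2.18 and 5.19, with values of both groups spread over the same range. At E11.5 the controls had 2.996, 5.96 and 8.25 CPM and the mutants 6.18, 2.64, 5.38 and 4.35, again overlapping. The log2 fold changes were -0.22 at E10.5 (95% interval -1.83 to 1.38, adjusted p = 0.897, edgeR) and -0.31 at E11.5 (95% interval -1.11 to 0.49, adjusted p = 0.682). Leaving out 1 library moved the first between -0.98 (without mutant replicate 3) and 0.13 (without mutant replicate 1), and the second between -0.62 (without control replicate 1) and 0.05 (without control replicate 3). Neuron markers summed to 724 CPM in E10.5 mutant replicate 3, the library with the most *Nkx6-1* among the E10.5 libraries, and to at most 61.3 in the other 5. Their part in that *Nkx6-1* level was not tested.

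*Meis1* and *Meis2* were the members with the most counts and the narrowest intervals. *Meis1* had 201, 189 and 205 CPM in E10.5 controls and 208, 171 and 195 in E10.5 mutants (log2 fold change -0.05, 95% interval -0.24 to 0.14, adjusted p = 0.787, edgeR). At E11.5 it had 187, 237 and 207 CPM in controls and 176, 189, 151 and 173 in mutants, so that mutant replicate 2 lay just above control replicate 1. The log2 fold change was -0.29 (95% interval -0.55 to -0.02, adjusted p = 0.225, edgeR), and *Meis1* was not called. Per 1000 mesenchyme marker counts, a sum that was itself higher in the mutants, *Meis1* had 91.2 to 141 counts in E11.5 controls and 67.0 to 85.0 in mutants, and *Meis2* 138 to 193 and 113 to 146. *Meis2* had 345, 356 and 383 CPM in E10.5 controls and 459, 409 and 371 in mutants (log2 fold change 0.19, 95% interval -0.01 to 0.39, adjusted p = 0.283, edgeR). At E11.5 it had 347, 249 and 283 CPM in controls and 297, 313, 323 and 320.5 in mutants, with a log2 fold change of 0.10 (95% interval -0.18 to 0.38, adjusted p = 0.714, edgeR). The groups overlapped at both stages. Between the stages *Meis2* fell by 0.35 on the log2 scale in mutants (adjusted p = 0.0437, edgeR), a call that was kept in 3 of the 13 fits that left out a library. In controls it had a log2 fold change of -0.26 (adjusted p = 0.128, edgeR), which was called without E11.5 control replicate 1 (-0.40, adjusted p = 0.0167). *Meis1* made up 36.0% to 38.8% of the summed *Meis1* and *Meis2* TPM in E10.5 controls and 30.2% to 36.4% in mutants, and 38.4% to 52.0% and 34.6% to 41.7% at E11.5.

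None of the 5 members tested was called for the genotype at E10.5, where 0.719% of the 15295 genes tested were called. None of the 5 separated the genotypes there, as 25% of all genes did. Over the members, the median log2 fold change was -0.05 at E10.5, against 0.03 over all genes tested, and -0.29 at E11.5, against -0.01. At E11.5, 2 of the 5 members had an unadjusted p under 0.05, *Isl1* and *Meis1*, against 2936 of 15376 genes.

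Genes that act around the members were described from lists. Of the Hedgehog targets, 4 of 7 tested were called lower at E10.5 and 1 of 7 at E11.5. The median log2 fold change was -0.88 and -0.43. *Foxf1*, a forkhead factor of the foregut mesenchyme, fell by 1.51 in log2 fold change at E10.5 (adjusted p = 0.0186, edgeR) and by 0.94 at E11.5 (adjusted p = 0.00875). *Foxf2*, its close relative, fell by 1.81 at E10.5 (adjusted p = 0.00746, edgeR), and so did the Hedgehog receptor *Ptch1*, by 0.67 (adjusted p = 0.0297). Where these genes fell at E10.5, *Isl1* was at -0.13 with an interval that reached no lower than -0.54.

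The regulators of the foregut mesenchyme are a list that shares *Foxf1* and *Foxf2* with the Hedgehog targets. At E10.5 these 2 of 22 tested were called lower and none was called higher. *Gata4* had a log2 fold change of 2.05 there (adjusted p = 0.0547, edgeR) and *Foxl1* one of -0.88 (adjusted p = 0.0560). Neither was called. The genotypes did not overlap in either, as they did not in 25% of all genes tested at E10.5. At E11.5, 3 of 23 were called lower, *Foxf1* again among them, and 1 was called higher. *Sox9*, the factor of cartilage progenitors, fell by 1.29 (adjusted p = 0.00168, edgeR) and *Tcf21*, a bHLH factor of visceral mesenchyme, by 1.05 (adjusted p = 0.0281). *Gata4*, a factor of the heart and gut mesoderm, rose by 0.90 (adjusted p = 0.0206, edgeR). Of the second heart field genes, among which *Isl1* is usually counted, 1 of 13 was called at E10.5, *Six2*, lower by 0.94 (adjusted p = 0.0405, edgeR). At E11.5, 1 of 12 was called lower, *Wnt11*, by 1.04 (adjusted p = 0.0464, edgeR). *Gata4* and the ligand gene *Bmp4* were called higher, *Bmp4* by 0.87 (adjusted p = 0.00565, edgeR). The second heart field list thus went both ways at E11.5, with a median of 0.32, and *Isl1* was at -1.78. Cardiomyocyte markers were higher in these mutants, and their part in the values of this list was not tested.

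Calls among the families of the members are to be read against the 0.719% of all genes called at E10.5 and the 2.5% at E11.5. Of the LIM-homeodomain factors and their cofactors, 0 of 14 tested were called at E10.5 and 1 of 10 at E11.5. The one called, *Ldb2*, which encodes a cofactor that bridges LIM-homeodomain proteins, had a mean of 28.2 ± 3.77 CPM in E11.5 controls (SD, n = 3) and 46.1 ± 4.31 in mutants (SD, n = 4), and rose by 0.71 on the log2 scale (adjusted p = 0.0221, edgeR). Its relative *Ldb1* had a log2 fold change of -0.05 (adjusted p = 0.835, edgeR). Of the relatives of the NK genes, 0 of 6 tested were called at E10.5 and 0 of 2 at E11.5, and 14 or more of the 20 in that list failed the filter at a stage. *Tlx1*, a gene of the spleen primordium, had the smallest p of that list at E10.5, with an adjusted p of 0.0514 (edgeR). It had 3 counts in all in the 3 controls and 69 in the 3 mutants. Its groups did not overlap, as those of 25% of all genes did not. *Nkx2-1*, the NK factor of the tracheal epithelium, had a log2 fold change of 0.28 at E11.5 (adjusted p = 0.483, edgeR). Of the TALE partners of *Meis1* and *Meis2*, 0 of 9 were called at E10.5 and 0 of 8 at E11.5.

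Of the secreted Wnt antagonists, some of which *Barx1* is known to promote in the stomach, 0 of 7 were called at E10.5 and 1 of 6 at E11.5. *Sfrp1* had a mean of 337 ± 20.6 CPM in E11.5 controls (SD, n = 3) and 527 ± 45.0 in mutants (SD, n = 4), and rose by 0.65 on the log2 scale (adjusted p = 0.0238, edgeR), at a stage where *Barx1* was not called.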

How the data were processed

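The members and gene lists were chosen with earlier results of these data known. The authors amplified the RNA (Ovation RNA-seq v2), made Nextera XT libraries and read single 75-nt ends, trimmed with BBDuk, aligned with Bowtie2 to mm10 and quantified with RSEM (1.3.0 per the submitters' processing notes). RSEM's gene annotation was not given in the sources used here. Estimated counts of RSEM were deposited by the authors as whole numbers, without normalization. The authors also deposited RSEM's TPM, which is scaled for transcript length and depth.

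Counts were scaled by TMM, filtered with filterByExpr and tested with edgeR 4.0.16 (R 4.3.3; quasi-likelihood F test, p adjusted after Benjamini-Hochberg across the genes tested), each stage alone for the genotype and all 13 libraries for the stage effects and their difference. A gene was called at an adjusted p under 0.05. The standard error is the size of the log2 fold change divided by the square root of F. CPM used TMM-scaled library sizes of the stage. The fits were tested on simulated data. The genes named were the members, *Gli3* as a check of the labels, up to 4 genes of smallest p per list, and the 3 genes most alike *Isl1*. *Ldb1*, *Pdx1*, *Ptf1a*, *Cdx2* and *Neurog3* fall outside that rule and were chosen after their values were seen. Some items that the rule would name, and some sequences, are not reported here. Alternatives were RLE, upper-quartile or library-size scaling, other filters on low counts, DESeq2 1.42.0, limma-voom and limma 3.58.1 on log2(TPM + 1) or log2(TPM + 0.1), a replicate block, all libraries in 1 fit, sex as a covariate and leaving out each library. The labels call the strain C57BL/6 and the methods an outbred background. The methods state 3 replicates per condition, while 4 mutant tracheas were given and used. Replicates were separate dissections, and intervals of count ratios cover counting error only.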

Additional observations from a re-analysis of the deposited data

Results flagged for a closer look

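In the E11.5 mutants, *Nkx2-3* had 3 counts in replicate 3 and 0 in the other 3 libraries, so that the gap from that library to the others made up the whole range of the group (a ratio of 1). *Nkx3-2* had 1 count in replicate 1 and 0 in the other 3, again a ratio of 1. With the other libraries at 0, any count above 0 gives a ratio of 1, so both flags were fixed by the low counts, and the rate of about 1 in 20 groups flagged by chance does not hold for them.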

How the results depend on the processing

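*Isl1* at E11.5 was called in all 12 other settings run (log2 fold change -1.87 to -1.73, adjusted p up to 0.0256 by the tool of each setting), sex as a covariate (read from *Xist*) among them, and in all 7 fits without 1 library. Its stage difference in mutants was called in all 11 other settings and all 13 fits without 1 library. Members called for the difference of the genotype effects were 0 by edgeR and 1 by DESeq2 (*Isl1*), the one setting of 11 to call it. The main fits took no pairing from the replicate numbers. Correlations of deviations between same-numbered controls and mutants were 0.08, 0.14 and 0.18 at E10.5. Every E10.5 sample correlated best with its own number, so same-numbered samples may be related at that stage. At E11.5 the correlations were -0.09, -0.08 and 0.11. With the replicate block, members called for the stage effect in mutants were 1 in place of 2 (*Meis2* lost, adjusted p = 0.0963, edgeR), and the other counts did not change. With both mutant libraries numbered 2 left out, a choice made after seeing the data, they were 1 in mutants (*Meis2* lost, adjusted p = 0.141, edgeR) and 1 in controls (*Barx1*). Leaving out each library gave 1 to 3 members for the stage effect in mutants and 0 to 1 in controls. Values of *Barx1* that were not called had either sign between genotypes: -0.38 to 0.27 at E10.5 and -0.36 to 0.11 at E11.5 over the settings. At E10.5, 0 of 3 controls and 2 of 3 mutants were female, and sex was not fitted. With few counts, *Barx1*, *Nkx6-1*, *Nkx2-3* and *Nkx3-2* were limited by depth.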
